A study of Caenorhabditis elegans with 2 samples.

Results

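The genes described here encode the proteins of the small subunit of the cytosolic ribosome of Caenorhabditis elegans, and the measurement is where the transcription factor BLMP-1 sat on chromatin near them. Members were all protein-coding genes whose symbol starts with rps- in the Ensembl annotation of WBcel235, the assembly also called ce11. This gave 31 of 19973 protein-coding genes. The rule reads symbols and no peak value, but it was chosen with earlier results of these data known. The chromatin came from whole L1 larvae, the first larval stage, of mixed sex and unknown age. They were of strain OP109, which carries a transgene that expresses an eGFP-tagged BLMP-1 (wgIs109) in the unc-119(ed3) background, and there was 1 group of 2 biological replicates with no other condition. The tagged protein comes from an inserted transgene, and whole animals were used, so a peak does not say in which cells the factor was bound.

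BLMP-1 is a zinc-finger factor, the worm relative of mammalian Blimp-1, best known in larvae for its work in the epidermis and in developmental timing. The small ribosomal subunit reads the messenger RNA and pairs codons with transfer RNAs. Its proteins are made in near equal amounts in every growing cell, and their genes are among the most strongly transcribed. In worms most such transcripts lose their original 5′ end by trans-splicing, in which a short spliced leader RNA is joined to an acceptor site. An annotated transcript start can therefore be that acceptor and not the place where transcription begins.

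BLMP-1 peaks lay upstream of nearly every small subunit gene. A gene counted as bound when the summit of a peak from the authors' optimal list of 8751 peaks lay between 1500 bp upstream and 500 bp downstream of a transcript start. By this rule 30 of 31 rps genes were bound (96.8%, exact 95% interval 83.3 to 99.9%), while 27.4% of all protein-coding genes were. The intervals cover counting error only. The genes lie apart, with 8 on the first chromosome, 9 on chromosome III, 10 on IV, 3 on V, 1 on II and none on X. Each bound gene had its own best peak, so the 30 genes stand for 30 different sites. They did not have more starts than other genes: 25 of 31 had 1 annotated start (80.6%), as had 73.7% of all protein-coding genes.

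The sequences under the summits are shown first for the 4 strongest peaks off the first chromosome, over the 75 bp on each side of the summit that carry no annotated exon of a protein-coding gene. They are read 5′ to 3′ on the strand of the rps gene from the ce11 reference. Capitals mark any of 6 short strings that recur among the rps peaks and are described further on. The rps-14 stretch is chrIII:7179772-7179922 (minus strand), that of rps-12 is chrIII:5679055-5679205 (plus), that of rps-0 is chrIII:4754276-4754423 (minus) and that of rps-22 is chrIII:1950334-1950484 (plus).
rps-14: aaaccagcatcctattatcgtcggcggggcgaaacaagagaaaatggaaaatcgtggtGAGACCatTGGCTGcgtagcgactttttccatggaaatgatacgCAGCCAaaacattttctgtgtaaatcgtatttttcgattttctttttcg
rps-12: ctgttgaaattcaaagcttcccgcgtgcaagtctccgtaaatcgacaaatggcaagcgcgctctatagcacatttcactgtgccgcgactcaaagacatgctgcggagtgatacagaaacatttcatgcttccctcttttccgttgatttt
rps-0: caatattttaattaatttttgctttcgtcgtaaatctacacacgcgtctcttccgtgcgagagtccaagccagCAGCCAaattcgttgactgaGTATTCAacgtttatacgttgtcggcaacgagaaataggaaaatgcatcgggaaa
rps-22: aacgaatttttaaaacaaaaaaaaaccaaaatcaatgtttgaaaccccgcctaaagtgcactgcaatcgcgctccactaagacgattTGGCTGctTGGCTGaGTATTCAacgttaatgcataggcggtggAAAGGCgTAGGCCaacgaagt
The stretches of rps-0 and rps-22 share a run around GTATTCA, and rps-12 holds none of the 6 strings.

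The peaks were mostly of middling to high strength within the list. The signal is the value of the authors' peak caller, on a scale not given in the sources used here, and was used only to rank and describe peaks of 1 list. The best peaks of the bound rps genes ran from rank 355 (signal 722) to rank 8517 (signal 64.8), with a median rank of 2562 and a median signal of 227. The median rank over all bound protein-coding genes was 3904 and their median signal was 163. Among the stronger 4375 peaks of the optimal list lay 26 of the 30 best peaks (86.7%), against 55.9% for all bound genes. Among the strongest 1000 peaks, which are 11.4% of the list, were 5 of the 30 (16.7%). The 11.4% is a share of peaks, with or without a gene, and the share for all bound genes is not given here.

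The strongest peak belonged to rps-20, which encodes a protein of the head of the subunit. Its peak (chromosome I 14469212 to 14469461) had rank 355 and signal 722 in the optimal list, rank 468 (signal 218) in the list of replicate 1 and rank 331 (signal 504) in that of replicate 2. Signals of different lists are not on a shared scale and only the ranks were read side by side. The gene rps-19, whose human counterpart is mutated in Diamond-Blackfan anaemia, had its peak at chromosome I 9625987 to 9626180, with signal 608 and rank 497. Its ranks in replicates 1 and 2 were 654 (signal 183) and 472 (signal 424). Next came rps-14, which encodes a protein of the platform, at chromosome III 7179743 to 7179950, with signal 521 and rank 661, and with ranks 727 and 658 in replicates 1 and 2. These genes thus stood high in both replicates.

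For rps-12, a head protein gene, the peak lay at chromosome III 5679034 to 5679214 with signal 513 and rank 689, and its ranks in replicates 1 and 2 were 1411 and 548. The gene rps-0, the counterpart of the human laminin receptor precursor RPSA, had a peak at chromosome III 4754255 to 4754423 with signal 419 and rank 980, and replicate ranks of 1033 and 1003. For rps-22 the peak lay at chromosome III 1950318 to 1950482 with signal 403, and its ranks were 1051 in the optimal list, 1491 in replicate 1 and 906 in replicate 2. The ranks of rps-0 were close in the replicates, and the peaks of rps-12 and rps-22 ranked higher in replicate 2 than in replicate 1.

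The last of the 10 strongest showed the same order of replicates. The head protein gene rps-15 (chromosome I 8816503 to 8816679, signal 396) had rank 1074, with 1761 in replicate 1 and 918 in replicate 2. The gene rps-1 (chromosome III 4475581 to 4475763, signal 383), which encodes a platform protein, had rank 1130, with 1766 and 957. The head protein gene rps-10 (chromosome I 4584763 to 4584957, signal 379) had rank 1150, with 1985 and 939. The head protein gene rps-28 (chromosome IV 1659097 to 1659432, signal 331) had rank 1425, with 4771 and 953, and of these 10 genes its replicates stood farthest apart.

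The other 20 bound genes had ranks from 1564 to 8517. In order of rank these were rps-23, a gene of the decoding centre (1564), rps-7 (1892), rps-24 (1905), rps-26, whose product lines the exit of the messenger RNA (2171), rps-25 (2560), rps-3, whose product lines the entry channel of the messenger RNA (2563), rps-17 (2570) and rps-30 (2582). They were followed by rps-21 (2622), rps-4 (2730), rps-11 (2766), rps-27 (2969), rps-29 (3215), rps-13 (3292), rps-5 (4033), rps-6, whose product is the target of the ribosomal S6 kinase (4087), rps-2 (4617) and rps-9 (4838). The weakest were rps-8 at rank 7804 (signal 74.2) and rps-18 at rank 8517 (signal 64.8), the latter close to the end of the optimal list. Genes for proteins of the head of the subunit and for the rest of it were spread over the same ranks. The 12 bound head genes ran from rank 355 to 8517 with a median of 1992, and the 18 genes of the body and platform ran from 661 to 7804 with a median of 2602.

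**Figure D1:**
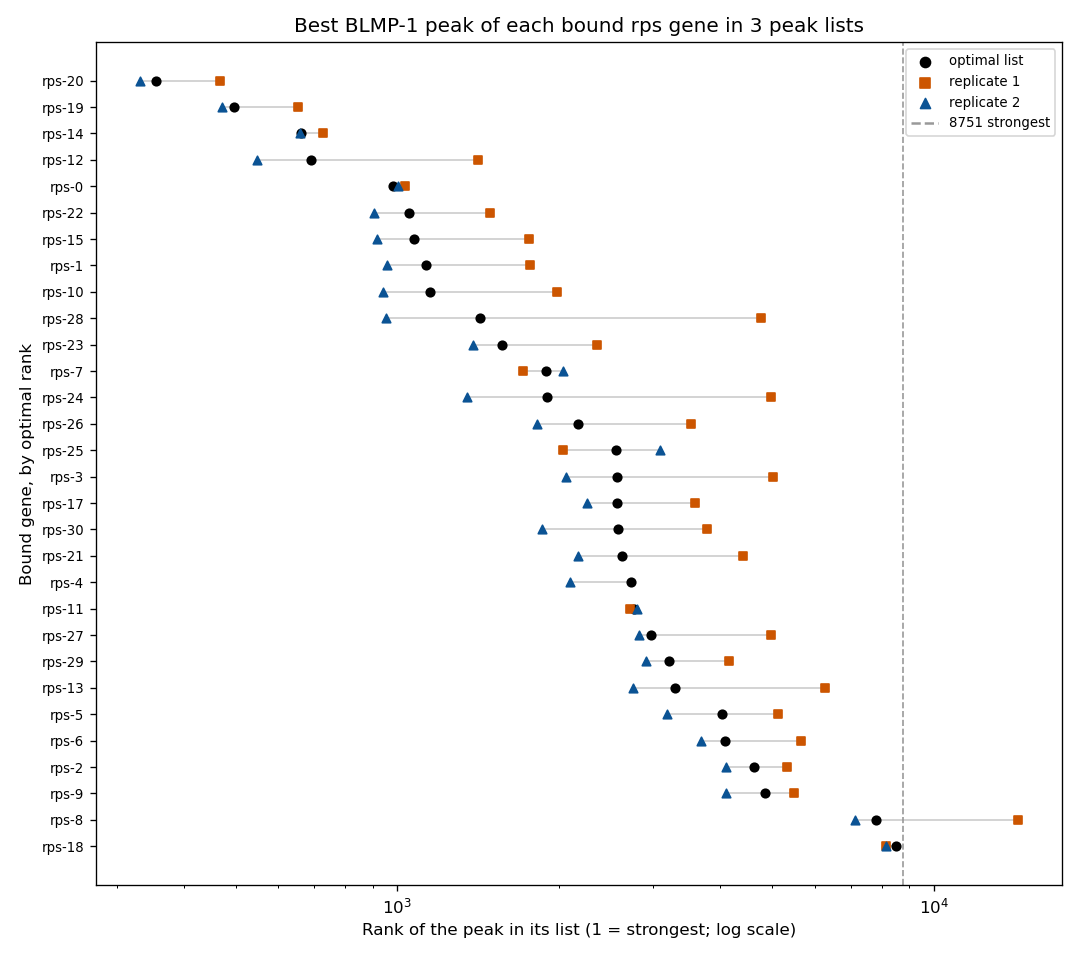
Rank of the best peak of each bound rps gene (rows, ordered by optimal rank) in the optimal list (black circles), in replicate 1 (orange squares) and in replicate 2 (blue triangles), on a log axis where 1 is the strongest peak and the dashed line marks the 8751 strongest. Replicate 2 lies to the left of replicate 1 for 25 of the 29 genes with a peak in both, rps-4 has no replicate 1 peak, and rps-8 lies beyond the line in replicate 1.

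Both replicates supported the peaks at all but 2 of the bound genes. A best summit was counted as supported when each replicate had a summit within 100 bp among its 8751 strongest peaks, which held for 28 of 30 rps genes (93.3%) and for 79.6% of all bound protein-coding genes. For rps-4 (chromosome IV 7084774 to 7085109, signal 218, 260 bp upstream of its start), replicate 2 had a summit at rank 2097 (signal 176), whereas the closest summit of replicate 1 lay 1655 bp away at rank 26614. For rps-8 (chromosome IV 7313962 to 7314297, 270 bp upstream), replicate 2 had a summit at rank 7118 (signal 57.4) and replicate 1 a summit 90 bp away at rank 14362 (signal 13.2). The support at rps-18 was near the limit of both lists, with ranks 8145 and 8155.

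The rps peaks ranked higher in replicate 2 than in replicate 1. Over the 29 genes with a summit within 100 bp in both full lists, the median rank was 3590 in replicate 1 and 2040 in replicate 2, and replicate 2 ranked the peak higher for 25 genes (86.2%). Of 7907 optimal peaks with a summit in both lists, 48.4% ranked higher in replicate 2, so the list as a whole had no such lean. The exceptions among rps genes were rps-7, rps-11, rps-18 and rps-25. With 1 library on each side this difference has no replicate check. The summit of replicate 2 was a median of 1 bp from the optimal summit (at most 68 bp) and that of replicate 1 a median of 13 bp (at most 90 bp), against 4 and 9 bp over all optimal peaks. The narrowest rps peak, at rps-27, spanned 92 bp, and 16 of the 30 had the most frequent width of the list, 336 bp.

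Most summits sat at a similar distance in front of the annotated starts. All 30 best summits lay upstream, none downstream, whereas 7.93% of all bound genes had theirs downstream. The median distance was 286 bp upstream, with quartiles at 372 and 252 bp, a spread between quartiles of 120 bp. All bound protein-coding genes had a similar median, 279 bp upstream, and a much wider spread between quartiles of 641 bp. Between 200 and 400 bp upstream lay 23 of the 30 rps summits (76.7%) and 19.5% of the best summits of all bound genes. The interval was chosen after the rps distances had been seen, so the rps share in it is a description. No test of this difference was made.

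A few genes departed from this distance. The best peak of rps-25 lay 1278 bp upstream at chromosome IV 5948783 to 5948977, but it was the sole gene with 2 peaks, and its second (rank 3748) lay 331 bp upstream. The summit of rps-27 was 617 bp upstream and that of rps-18 was 519 bp upstream, and both were nearer to the start of a neighbour. The shortest distances were 126 bp for rps-22 and 168 bp for rps-12. The gene rps-22 has a second annotated start that lies farther from the summit, so its short distance is to the more upstream of its starts.

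Large subunit genes had a similar median distance and mitochondrial ones a shorter one. Of 47 genes with symbols starting rpl-, which encode proteins of the large subunit of the same ribosome, 39 were bound (83.0%), and their summits had a median of 302 bp upstream with quartiles at 372 and 252 bp. Of 29 mrps genes, which encode proteins of the small subunit of the mitochondrial ribosome, 15 were bound (51.7%). Their median distance was 140 bp upstream with quartiles at 255 and 123 bp, and 2 of the 15 lay between 200 and 400 bp upstream. The median rank was 1735 for the rpl genes and 4411 for the mrps genes.

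**Figure D2:**
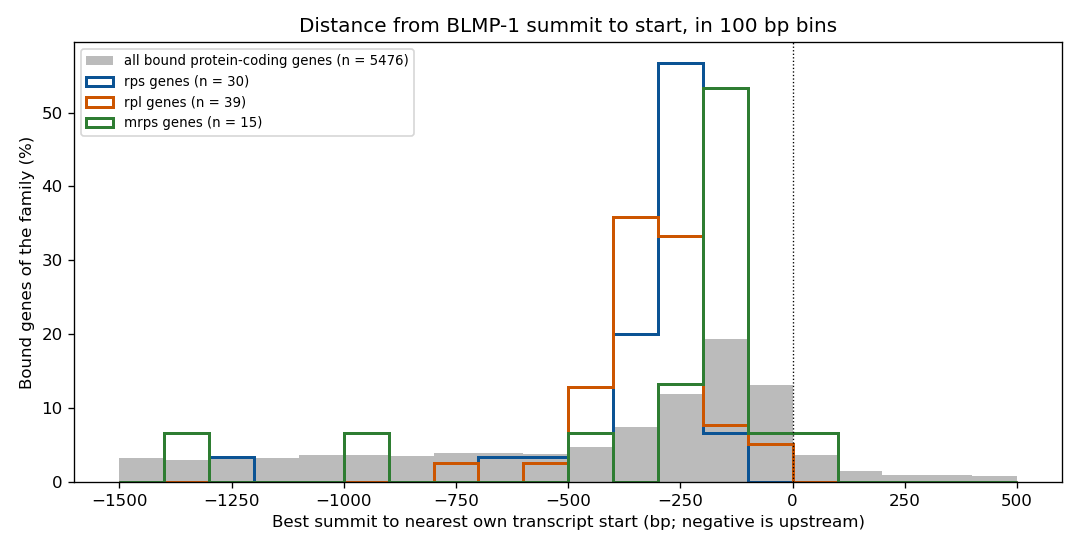
Share of bound genes (percent of each family) by the signed distance from the best summit to the nearest own transcript start, in bp and in 100 bp bins, for all bound protein-coding genes (grey, n = 5476), rps (blue, n = 30), rpl (orange, n = 39) and mrps genes (green, n = 15). The rps and rpl outlines pile up 200 to 400 bp upstream, the mrps outline nearer to the start, and the grey bars spread along the whole window.

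Every rps gene had an annotated start that directly followed the letters of a splice acceptor. In every one of the 31 rps genes the bases AG directly preceded an annotated start, and TTTCAG did so in 17 (54.8%). Over all protein-coding genes the shares were 36.1% for AG and 16.7% for TTTCAG. The 20 bases in front of 5 starts are shown, with AG or the whole of TTTCAG in capitals, for rps-1 (chrIII:4475898-4475917, plus strand), rps-3 (chrIII:6206783-6206802, plus), rps-14 (chrIII:7179589-7179608, minus), rps-16 (chrV:15000542-15000561, minus) and rps-18 (chrIV:14825659-14825678, plus). These were picked after their letters had been read.
rps-1: ttatgtattcctatTTTCAG
rps-3: attaatattcaaatTTTCAG
rps-14: atcaaggaattcaattttAG
rps-16: tgtttaatatattattacAG
rps-18: ctaaattttttattTTTCAG
The distances above are thus measured from places with the letters of an acceptor, and the site where transcription begins was not measured.

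Many of these peaks lay between an rps gene and a neighbour that points the other way, and no test of the difference from other genes was made. For 14 of the 30 bound genes (46.7%) the start of another protein-coding gene was nearer to the summit than the start of the rps gene, against 25.0% of all bound genes, and in all 14 that neighbour was on the opposite strand. The rpl genes had a similar share, 17 of 39 bound genes (43.6%), and 3 of the peaks are shared between an rps and an rpl gene. How often a nearer start of another gene is on the opposite strand was not counted over all bound genes. The peak of rps-20 lay 235 bp from its own start and 162 bp from that of ekl-4. The peak of rps-19 lay 283 bp from its own and 162 bp from that of hsr-9, the gene of a protein related to human 53BP1. The summit of rps-0 was 300 bp from its own start and 73 bp from the start of rbg-3 and that of rps-26 was 386 bp from its own and 71 bp from the start of tmem-107. Which of the 2 genes such a peak acts on was not measured.

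In 3 cases the gene on the other side encodes a large subunit protein of the same ribosome. The peak of rps-30, whose product is made as a fusion to a ubiquitin-like protein, lay 251 bp from its own start and 248 bp from the start of rpl-39. The peak of rps-14 lay 259 bp from its own start and 404 bp from that of rpl-36, and the peak of rps-10 lay 365 bp from its own and 245 bp from that of rpl-24.1. Each of these peaks was the best peak of both genes.

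The starts of genes of several kinds were the nearer ones elsewhere. They were ska-3 (125 bp, beside rps-12), dpm-3 (243 bp, rps-23), sna-3 (242 bp, rps-3), picd-1 (131 bp, rps-27), snt-2, a synaptotagmin gene (87 bp, rps-29), nfx-1 (177 bp, rps-13), the deubiquitinase gene usp-3 (243 bp, rps-6) and sec-61.A, which encodes a subunit of the translocon (104 bp, rps-18). The rps-18 summit lay within the 5′ UTR of sec-61.A, and it was the sole best summit inside a protein-coding gene. Among the 10 strongest, the own start was the nearer one for rps-14 and also for rps-15 (386 bp, against 395 bp to F36A2.9), rps-1 (250 bp, against 518 bp to ifet-1), rps-22 (126 bp, against 140 bp to polh-1) and rps-28 (426 bp, against 845 bp to Y41D4B.4). For 23 of the 30 the summit lay in no annotated gene of any kind. How often the best summits of all bound genes lie in no annotated gene, or inside a protein-coding gene, is not given here.

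The higher median rank was that of genes with a divergent neighbour. Of the 31 rps genes, 22 had an upstream neighbour on the opposite strand and 9 had one on the same strand. The share of all protein-coding genes with an upstream neighbour on the opposite strand was not counted. Distance had no part in this grouping, and the divergent neighbours of rps-5, rps-24 and rps-28 lay 1896, 2702 and 14393 bp away. The 22 of the first kind were all bound, with a median rank of 1734 (355 to 8517), and the 8 bound genes of the second kind had a median rank of 2676 (1892 to 7804). All of the 10 strongest best peaks, rps-28 among them, were of the first kind, as were 22 of all 30 best peaks. Median distances were 290 bp upstream for the first kind and 272 bp for the second. The gap to the upstream gene had a median of 550 bp for the first kind and 522 bp for the second.

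**Figure D3:**
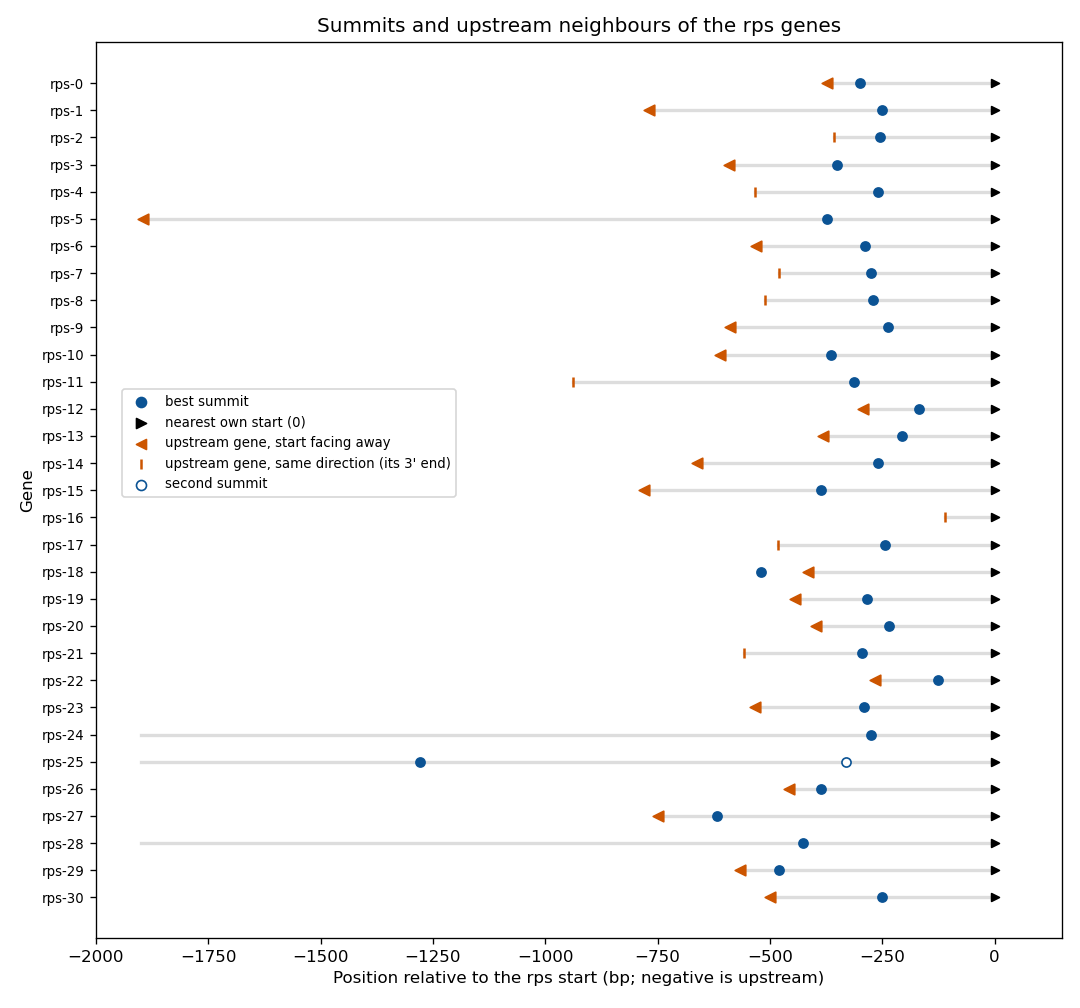
Position of the best summit (filled blue circle) and second summit (open circle) relative to the start of each rps gene (0, black triangle), in bp, with the nearest protein-coding gene upstream shown as an orange arrowhead where it points away and as an orange bar at its 3′ end where it points the same way. The upstream genes of rps-24, rps-25 and rps-28 lie beyond the left end of the grey lines. Most blue circles form a column near 286 bp upstream, and rps-16 has none.

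The unbound gene was rps-16, which encodes a head protein and follows closely behind another gene. Its start lies 110 bp downstream of the end of fib-1 on the same strand. The gene fib-1 encodes fibrillarin, the methyltransferase that modifies ribosomal RNA. The nearest optimal peak (rank 2375, signal 240, chromosome V 15002190 to 15002525) had its summit 1817 bp upstream of rps-16 and 135 bp upstream of fib-1. Replicate 1 had the corresponding summit at rank 2654 (signal 76.2), 142 bp upstream of fib-1, and replicate 2 at rank 2136 (signal 174), 103 bp upstream. Closely spaced genes on 1 strand are often transcribed together in worms. Whether this pair is transcribed together was not measured. The summit at 1817 bp fell outside the 1500 bp limit, and the farthest one inside it was that of rps-25 at 1278 bp.

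Small nucleolar RNA genes lay near several of the peaks. A tRNA, rRNA, snRNA or snoRNA gene was within 1000 bp of the best summit for 6 of the 30 bound rps genes (20%), against 3.74% of all bound protein-coding genes. Among bound rpl genes the share was 8 of 39 (20.5%). All 6 were snoRNA cases and none involved a tRNA, rRNA or snRNA gene. Such RNAs guide the chemical modification of ribosomal RNA and in animals are often processed from introns of ribosomal protein genes.

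In 4 of these genes the snoRNA genes sit inside the rps gene. They are rps-12, with F54E7.10 and F54E7.11, rps-13 with C16A3.11, rps-23 with F28D1.13, and rps-29 with B0412.6 and B0412.7, at 248, 654, 689 and 579 bp from the summits for the nearest one. For the other two the snoRNA gene sits inside the gene across the peak, D1007.20 in rpl-24.1 (379 bp, rps-10) and F39B2.14 in tmem-107 (132 bp, rps-26). The gene rps-4 also holds a snoRNA gene, Y43B11AR.7, more than 1000 bp from its summit. The best peaks of the 6 genes had a median rank of 1868, and those of the other 24 had a median of 2566. At chromosome III 793652 to 793987 the rps-29 summit lay 480 bp upstream of its start (signal 193, replicate ranks 4153 and 2908), and at III 6375034 to 6375369 that of rps-13 lay 205 bp upstream (signal 189, ranks 6281 and 2750). At chromosome IV 12391176 to 12391511 the rps-23 summit lay 291 bp upstream (signal 313, ranks 2356 and 1384). That of rps-26, at chromosome I 14759376 to 14759711, had signal 254 and replicate ranks of 3534 and 1818. The part of the snoRNA genes in these peaks was not tested.

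Among other small RNAs, the microRNA gene mir-354 lies inside rps-20, 847 bp from its summit, and 0.694% of all bound genes had a microRNA gene within 1000 bp. Genes of piRNAs, the small RNAs of the germline, were within 1000 bp of the summit for rps-10 (21ur-11631) and rps-21 (21ur-7304 and 21ur-10581), and for 3.63% of all bound genes. Genes annotated as ncRNA with no further class were within 1000 bp for 8 of the 30 (26.7%), for 12 of the 39 bound rpl genes (30.8%) and for 17.0% of all bound genes. None of these differences was tested. The summits of rps-0, rps-1, rps-2, rps-6, rps-10 and rps-30 lay in an exon of such a gene, for example B0393.12 at rps-0. The share of all bound genes with a summit in such an exon is not given here.

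The share of rps windows with the motif searched for BLMP-1 rests on few windows, and its difference from other bound genes was not tested. No rps best peak held an exact AAAGTGAAA on either strand within 75 bp of the summit. By the approximate limit of 3 divided by the number of windows, this count of 0 allows a share of up to 10%. The exact motif was present in 4.44% of the bound genes' best peaks and in 5.42% of all optimal peaks, and both shares lie below that limit. It was also in 0 of the 36 windows at rpl peaks not shared with an rps gene. Of 4127 windows at best peaks of bound genes that are neither rps nor rpl, 5.06% held it. With at most 1 mismatch, 6 of the 30 windows (20%) held the motif, against 27.9% for all bound genes. They were those of rps-6, rps-11, rps-12, rps-24, rps-25 and rps-28. The count depended on the window, with 3 within 50 bp of the summit and 12 within 150 bp. Shares of all bound genes at those widths are not given here. The string GAGAGA was present in 8 rps windows (26.7%), in 31.1% of those of all bound genes and in 34.0% of the windows of all optimal peaks. Bases G and C made up a median of 46.4% of the rps windows (33.1% at rps-18 to 52.3% at rps-30), against 41.1% for the best peaks of all bound genes.

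Other short strings recurred at the rps summits. They were picked by ranking all strings of 6 to 8 bases and reading the 30 rps windows, so their counts in these windows are a description. Each was counted on both strands in the bases within 75 bp of the summit. The string GGTCTC, or its reverse complement GAGACC, was in 13 of the 30 rps windows (43.3%), on the strand of the gene in 11 of them, and in 7.97% of 4127 windows at the best peaks of bound genes that are neither rps nor rpl. The median position of its first base was 282 bp upstream of the rps start. The 36 rpl peaks that are not shared with an rps gene had no part in the choice, and 16 of them (44.4%) held the string.

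The surroundings of GGTCTC, with the string in capitals, are shown to let the bases around it be compared, for rps-2 (chrIV:7926632-7926663, minus strand), rps-3 (chrIII:6206418-6206449, plus), rps-8 (chrIV:7314123-7314154, minus), rps-11 (chrIV:11602302-11602333, plus) and rps-29 (chrIII:793764-793795, plus), at 260, 373, 282, 327 and 524 bp upstream of the rps start. These were picked after the letters had been read.
rps-2: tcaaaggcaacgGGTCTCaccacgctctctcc
rps-3: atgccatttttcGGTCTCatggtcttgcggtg
rps-8: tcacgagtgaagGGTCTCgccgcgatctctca
rps-11: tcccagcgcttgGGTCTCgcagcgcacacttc
rps-29: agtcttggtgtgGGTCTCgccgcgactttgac
The bases after the string were gccgcga in both rps-8 and rps-29.

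The string GTATTCA was rarer and lay within a longer shared run. It was in 5 of the 30 rps windows (16.7%), each time on the strand of the gene, in 1.5% of the windows of other bound genes and in 4 of the 36 rpl windows (11.1%). The members are rps-0, rps-3, rps-20, rps-22 and rps-30, of which rps-0, rps-20 and rps-22 are among the 10 strongest peaks. The stretches of those off the first chromosome that are shown here are rps-0 (chrIII:4754310-4754342, minus strand), rps-3 (chrIII:6206472-6206504, plus), rps-22 (chrIII:1950424-1950456, plus) and rps-30 (chrV:7776337-7776369, plus), and the string starts 279, 319, 99 and 229 bp upstream of the rps start.
rps-0: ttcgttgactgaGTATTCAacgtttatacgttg
rps-3: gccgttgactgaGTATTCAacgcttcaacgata
rps-22: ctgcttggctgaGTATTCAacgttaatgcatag
rps-30: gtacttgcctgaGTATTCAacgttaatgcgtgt
In all 4 the string is preceded by ctga and followed by acg.

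The other 4 strings were spread over more genes. AAAGGC was in 10 rps windows (33.3%), 12 rpl windows (33.3%) and 7.37% of those of other bound genes. ACGGTA was in 6 rps windows (20%), 10 rpl windows (27.8%) and 4.51% of the others. GGCCTA was in 10 rps windows (33.3%), 10 rpl windows (27.8%) and 3.49% of the others, and CAGCCA was in 9 rps windows (30%), 7 rpl windows (19.4%) and 4.0% of the others. At least 1 of the 6 strings was present in 28 of the 30 rps windows (93.3%), in 31 of the 36 rpl windows (86.1%) and in 24.7% of the others. The rps windows without any were those of rps-12 and rps-25. In windows centred 500 bp farther upstream of the rps summits 5 of 30 held any of them, though many of those windows reach into the neighbouring gene. The factors that read these strings were not measured.

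Other genes that serve the small subunit were bound as well. Of 29 symbols listed for proteins that join, modify or load the small subunit, 26 were found in the annotation under that symbol. The symbols iftb-1, eif-3.A and eif-3.M were not found, and other names of these genes were not searched. The list was chosen with earlier results of these data known, so its share is a description. Of the 26, 18 were bound (69.2%, exact 95% interval 48.2 to 85.7%) beside 27.4% of all protein-coding genes. The strongest was ubl-1, which encodes a small subunit protein fused to ubiquitin (rank 341, 197 bp upstream), just above rps-20. Bound genes for ribosomal RNA modification and processing were fib-1 (rank 2375), nol-56 (1316), nol-58 (1832), rbd-1 (1225) and the kinase genes riok-1 (6876) and riok-2 (7599). The gene rack-1, which encodes a scaffold protein of the head, had its summit 1408 bp upstream (rank 2267). Among initiation factor genes eif-3.C (1049), eif-3.B (1403), eif-3.E (1612), eif-3.H (3085), eif-3.G (3238), eif-2beta (4326), eif-3.K (6313), eif-3.I (6649) and eif-1 (7676) were bound, as was the nucleolar regulator gene ncl-1 (1794). The unbound ones were the S6 kinase gene rsks-1, riok-3, eif-1.A, eif-2alpha, eif-2gamma, eif-3.D, eif-3.F and eif-3.L. Both replicates supported the best summits of 16 of the 18 bound genes, and eif-3.I and eif-1 lacked that support. The summit of eif-3.K lay 1494 bp upstream, at the edge of the window.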

How the data were processed

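ChIP-seq of eGFP-tagged BLMP-1 was deposited as narrowPeak lists for 2 biological replicates. The deposited peak signal is the value of the authors' caller. The lists hold 27310 peaks for replicate 1, 30000 for replicate 2 and 30000 for the replicates pooled. The optimal list of 8751 peaks came from an irreproducible discovery rate (IDR) analysis, per the deposited file listings. Aligner, caller and IDR threshold: not given in the sources used here. No read counts were used, so depth is unknown. The ce10 lists were not used, and libraries of the possible control named in the labels were not analysed here.

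Summits (start plus offset, written 1-based) were set against starts of protein-coding transcripts of Ensembl release 115, and sequences were read from the RefSeq FASTA of the same assembly. The peak with the highest signal was a gene's best peak. Replicate matches used 100 bp, small RNA genes 1000 bp and motif windows 75 bp on each side. All rps genes are named, with full values for the 10 strongest, the unbound, the unsupported and those near small RNA genes.

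The members and lists were chosen with earlier results of these data known. The interval of 200 to 400 bp, the groups by place in the subunit and by neighbour, the count of higher ranks in replicate 2, the 6 strings and the short stretches shown were chosen after the values or letters had been seen. No test was made, since there is 1 group. Intervals are exact (Clopper-Pearson). The assignment and motif counts were tested on simulated data. Computation used Python 3.11.15, scipy 1.17.1 and matplotlib 3.10.9.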

Additional observations from a re-analysis of the deposited data

How the results depend on the processing

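The 8 main results were recomputed under 17 other settings, which gave 73 values. Of these, 14 were classed as moved and 59 as the same, a class that allows sizeable shifts. It includes 24 bound rps genes (main 30), a median rank of 3562 (main 2562) and 13 other small subunit genes bound (main 18). The last of these was with the stronger 4375 optimal peaks, where 26 of 31 rps genes were bound (83.9%, against 15.3% of all genes). Leaving out a replicate gave median distances of -292 to -285 bp (negative is upstream), 28 to 30 bound rps genes and median ranks of 2050 to 3562, each among the 8751 strongest peaks of the other replicate. Without replicate 2, rps-4 and rps-8 were unbound. The median distance was -279 bp with a window of 500 bp upstream and also without peaks near small RNA genes. When each summit was given to the nearest start only, 16 of 31 rps genes were bound (51.6%, against 25.1% of all genes), at a median distance of -272 bp, with 14 supported in both replicates and 0 near a small RNA gene. The start of another gene was then nearer for 0, by construction. Without peaks near small RNA genes, 24 rps genes were bound (77.4%, against 26.4% of all genes), another start was nearer for 8, and 0 had a small RNA gene nearby, the last by construction. A small RNA gene lay within 500 bp for 3. The motif was found in 0 windows as an exact match, in 3 within 50 bp and in 12 within 150 bp. With a window of 3000 bp upstream all 31 rps genes were bound, against 34.5% of all genes, and with 500 bp 28 were bound, against 19.5% of all genes, with rps-16, rps-18 and rps-27 left unbound.

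No paired analysis was possible because there is 1 group. With 2 replicates and no read counts, the precision of a single peak is unknown, and a summit between divergent starts cannot be told apart from a summit of the neighbour.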

Other observations

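Weaker peaks of the pooled list, below the optimal ones, lay in the windows of 10 of the 31 rps genes (32.3%), a share near the 35.8% of all protein-coding genes. The strongest of these was at rps-28 (pooled rank 9886, signal 50.1, 1073 bp upstream), followed by rps-26 (11678, 1280 bp upstream) and rps-19 (12754, 427 bp downstream). The others, at rps-3, rps-5, rps-18, rps-21, rps-23, rps-24 and rps-30, had pooled ranks from 13682 to 29249. No weaker peak lay in the window of rps-16, where the next pooled summit besides that at fib-1 was 12288 bp downstream.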
